A study of Homo sapiens with 6 samples.

Results

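The genes described here encode the PIKfyve lipid kinase complex (PIKFYVE, VAC14 and FIG4), the endosomal pair WDR81 and WDR91, and the small GTPase RAB7A. These 6 genes were found by symbol among the 57773 genes of the count table, and all 6 had enough reads to be tested. The set was chosen by the measured fold changes in sgZNF507 against EV, in which WDR81 and VAC14 are in the study's list of changed genes, and was completed with their known partners. The values of that comparison are therefore given below as a description without a test. Where a member is said to be called in it, nothing is read from the call.

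PIKfyve is the kinase that adds a phosphate to PI3P, a lipid of endosome membranes, to make the doubly phosphorylated lipid that late endosomes and lysosomes need to keep their size and ion balance. VAC14 is the scaffold that holds the complex together, and FIG4 is a lipid phosphatase that sits in the same complex and helps to keep it active. WDR81 and WDR91 form a complex that limits the making of PI3P while early endosomes mature, and WDR91 binds the active form of RAB7A, the GTPase that marks late endosomes.

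The cells were HEK293, an established line derived from human embryonic kidney, and all 6 libraries came from cells transfected with a Cas9 plasmid (PX459). The EV group received the empty vector, the sgZNF146 group received 4 target sequences against ZNF146, and the sgZNF507 group received 4 target sequences against ZNF507. Every group was selected with puromycin for 36 h, grown out to a total of 2 weeks and sequenced in 2 libraries after removal of ribosomal RNA. For both targets, the paper reports protein essentially undetectable by western blot and indels at the target sites in RNA reads. No cloning step is described, so each library may hold edited and unedited cells. In such a population, a large change in some cells and a small change in all cells cannot be told apart.

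The libraries held between 22724439 and 28524025 counts, and replicates of a group differed by more than counting error (chi-square per degree of freedom from 7.06 to 10.7). ZNF507 was counted 1088 and 1411 times in sgZNF507 against 1792 and 2087 times in EV, which after scaling to library size was 48.0 ± 1.06 against 73.7 ± 2.48 CPM (counts scaled to a common library size; SD, n = 2 each). ZNF146 RNA was 101 ± 2.47 CPM in sgZNF146 and 110 ± 6.68 CPM in EV (SD, n = 2 each), with an adjusted p of 1.00 (edgeR), and 94.9 ± 9.22 CPM in sgZNF507, so its RNA level does not check that label. As known for this line, NEFM and VIM were read in every library (66.3 to 77.5 CPM and 1010 to 1150 CPM). PAX2, also known for it, was read at 5.25 to 8.03 CPM. Of the differentiated kidney genes, UMOD had 0 counts in all 6 libraries, and AQP2, SLC12A1 and SLC34A1 had at most 2. NPHS1, of the same list, went the other way, with 29 to 50 counts (1.26 to 1.81 CPM). The leukocyte gene PTPRC had 1 to 5 counts. The fibroblast gene COL1A1, at 58.9 to 73.0 CPM, was also read in every library. Its part in the results below was not tested.

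Of the sequences behind these values, the ZNF507 targets are shown because they separate the sgZNF507 libraries from the rest. Each is written as its protospacer on the plus strand of chromosome 19 (GRCh37), 20 bases completed from the genome, followed in capitals by the adjacent motif that Cas9 requires. The listed target sequences are the opposite strand of these runs and are up to 2 bases shorter.
ZNF507 target 1 (chr19:32844237-32844256): ggaggaacttgaagcccacgTGG
ZNF507 target 2 (chr19:32845605-32845624): aagtttgtccggaaacaatgTGG
ZNF507 target 3 (chr19:32844219-32844238): tattacatctagaagccaggAGG
ZNF507 target 4 (chr19:32845261-32845280): gagttgacaagagccaacctGGG
Next to an NGG, the closest match to any of these 4 protospacers within an exon of WDR81 had 7 mismatches, and the closest within an exon of VAC14 had 8. Over introns and exons together, the fewest mismatches were 7 in WDR81 and 5 in VAC14. For the other 4 genes the fewest mismatches in exons lay between 6 and 8.

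The promoters of WDR81 and VAC14 are shown because these members had the largest fold changes in sgZNF507 against EV. RefSeq windows (GRCh38.p14) of 250 bases before to 50 bases after a start site were found for all 6 genes, 7 windows in total, since WDR81 has 2. The letters CACGTG, the E-box core read alike on both strands and bound by the lysosomal regulators of the TFEB family among others, are in capitals.
VAC14 (chr16:70801109-70801408, minus strand): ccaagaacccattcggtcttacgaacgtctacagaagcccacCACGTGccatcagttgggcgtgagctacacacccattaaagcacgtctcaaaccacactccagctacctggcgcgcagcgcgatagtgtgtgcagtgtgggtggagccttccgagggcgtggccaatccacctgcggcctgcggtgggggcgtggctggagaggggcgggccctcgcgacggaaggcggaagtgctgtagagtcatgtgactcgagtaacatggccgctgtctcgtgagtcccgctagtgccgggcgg
WDR81, downstream start (chr17:1724454-1724753, plus strand): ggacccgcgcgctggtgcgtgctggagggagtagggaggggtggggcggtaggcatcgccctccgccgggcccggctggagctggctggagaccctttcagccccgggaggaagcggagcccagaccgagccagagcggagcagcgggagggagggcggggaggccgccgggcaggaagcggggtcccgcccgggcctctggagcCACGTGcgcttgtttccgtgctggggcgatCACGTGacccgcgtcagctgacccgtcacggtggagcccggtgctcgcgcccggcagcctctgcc
CACGTG was found in 2 of the 7 windows, at 208 bases before the start site in VAC14 and at 45 and 15 bases before the downstream start site in WDR81. In WDR81 the match at 15 bases lies within the longer palindrome TCACGTGA. Of 35116 promoter windows of this length, 7.26% hold CACGTG and 0.98% hold TCACGTGA. The upstream window of WDR81 and the windows of PIKFYVE, FIG4, WDR91 and RAB7A hold neither.

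In GRCh37, the genes lie at chr17:1619817-1641893 (WDR81, plus strand), chr16:70721342-70835063 (VAC14, minus), chr7:134868591-134896307 (WDR91, minus), chr6:110011812-110199301 (FIG4, plus), chr2:209130979-209223470 (PIKFYVE, plus) and chr3:128412512-128544785 (RAB7A, plus). Levels of the 6 genes were compared per kilobase of the canonical transcript. Over all annotated exons, FIG4 has 28959 bases against 3025 in that transcript, WDR91 16225 against 4580 and PIKFYVE 10839 against 9908. The order of the lower genes, and their overlaps, therefore depend on the length chosen. In EV, the order was RAB7A (69.2 ± 1.89 CPM per kb), VAC14 (30.8 ± 1.25), WDR81 (11.6 ± 1.06), WDR91 (8.58 ± 0.134), FIG4 (7.34 ± 0.533) and PIKFYVE (6.78 ± 0.0574; SD, n = 2 each). No pair of neighbors in this order overlapped between their EV libraries, although FIG4 (6.96 to 7.71 CPM per kb) and PIKFYVE (6.74 to 6.82) lay close together. RNA of the scaffold VAC14 was thus read at a higher level per length than RNA of the kinase or the phosphatase. In sgZNF146, WDR91 (7.31 to 7.78), FIG4 (6.63 to 7.69) and PIKFYVE (6.51 to 6.82) formed a chain in which each overlapped the next. In sgZNF507, WDR81 (7.06 to 7.23) lay below WDR91 (8.16 to 8.62) and FIG4 (8.09 to 8.83), which overlapped each other, and remained above PIKFYVE (6.19 to 6.93).

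WDR81, the BEACH domain protein of the pair, was the member with the lowest level in sgZNF507 relative to EV. It was counted 1883 and 2380 times in EV, 1911 and 2147 times in sgZNF146 and 1136 and 1462 times in sgZNF507. As CPM these were 75.6 and 86.1, 75.3 and 85.3, and 49.3 and 50.5. Both sgZNF507 libraries lay below all 4 others, while the EV and sgZNF146 libraries overlapped. Its log2 fold change in sgZNF507 was -0.70 against EV (standard error, SE, of 0.09, 95% interval -0.88 to -0.51) and -0.69 against sgZNF146 (SE 0.09). These comparisons share the sgZNF507 libraries.

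WDR91, the partner of WDR81, had 38.9 and 39.8 CPM in EV and 37.4 and 39.5 CPM in sgZNF507, so that these groups overlapped. Its log2 fold change in sgZNF507 against EV was -0.03 (95% interval -0.21 to 0.14). Within a library, WDR81 was counted 1.95 and 2.17 times as often as WDR91 in EV, 2.25 and 2.39 times in sgZNF146 and 1.32 and 1.28 times in sgZNF507. The ratio, which does not depend on the scaling between libraries, was lower in both sgZNF507 libraries than in the other 4. It reuses the WDR81 counts that chose the set, so nothing further is read from its direction.

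VAC14, the scaffold of the kinase complex, was the member with the highest level in sgZNF507 relative to EV. It was counted 2442 and 2561 times in EV, 2517 and 2507 times in sgZNF146 and 3035 and 3450 times in sgZNF507. As CPM these were 98.1 and 92.6, 99.2 and 99.6, and 132 and 119. Both sgZNF507 libraries were again apart from the other 4, here above them. The log2 fold change in sgZNF507 was 0.39 against EV (SE 0.07, 95% interval 0.25 to 0.54) and 0.33 against sgZNF146 (SE 0.07).

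PIKFYVE, the kinase itself, had 66.8 and 67.6 CPM in EV, 64.5 and 67.5 CPM in sgZNF146 and 61.4 and 68.6 CPM in sgZNF507. All 3 groups overlapped, with a log2 fold change of -0.05 in sgZNF507 against EV (95% interval -0.21 to 0.12). The counts of VAC14 per count of PIKFYVE were 1.47 and 1.37 in EV, 1.54 and 1.48 in sgZNF146 and 2.15 and 1.74 in sgZNF507. The scaffold was therefore read more often per kinase count in both sgZNF507 libraries than in any other library. This ratio reuses the VAC14 counts that chose the set, so nothing further is read from its direction.

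FIG4, the phosphatase of the complex, was the member with the fewest reads. It had 21.0 and 23.3 CPM in EV, 20.1 and 23.3 CPM in sgZNF146 and 24.5 and 26.7 CPM in sgZNF507. Its start overlaps AK9, an adenylate kinase gene on the opposite strand with 140 to 256 counts per library beside 509 to 774 for FIG4, and AK9 had a log2 fold change of -0.03 (SE 0.19). The sgZNF507 libraries lay above the other 4, and the log2 fold change against EV was 0.21 (SE 0.11) with a 95% interval from -0.02 to 0.44 that includes 0. Counts of FIG4 per count of PIKFYVE were 0.315 and 0.345 in EV, 0.311 and 0.344 in sgZNF146 and 0.399 and 0.389 in sgZNF507. Counts of VAC14 per count of FIG4, from 3.97 to 4.66 in EV and from 4.46 to 5.38 in sgZNF507, overlapped between these groups.

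RAB7A was the most abundant of the 6, with 148 and 154 CPM in EV, 152 and 142 CPM in sgZNF146 and 151 and 143 CPM in sgZNF507. The groups overlapped, and the log2 fold change in sgZNF507 against EV was -0.04 (95% interval -0.18 to 0.10).

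**Figure D1:**
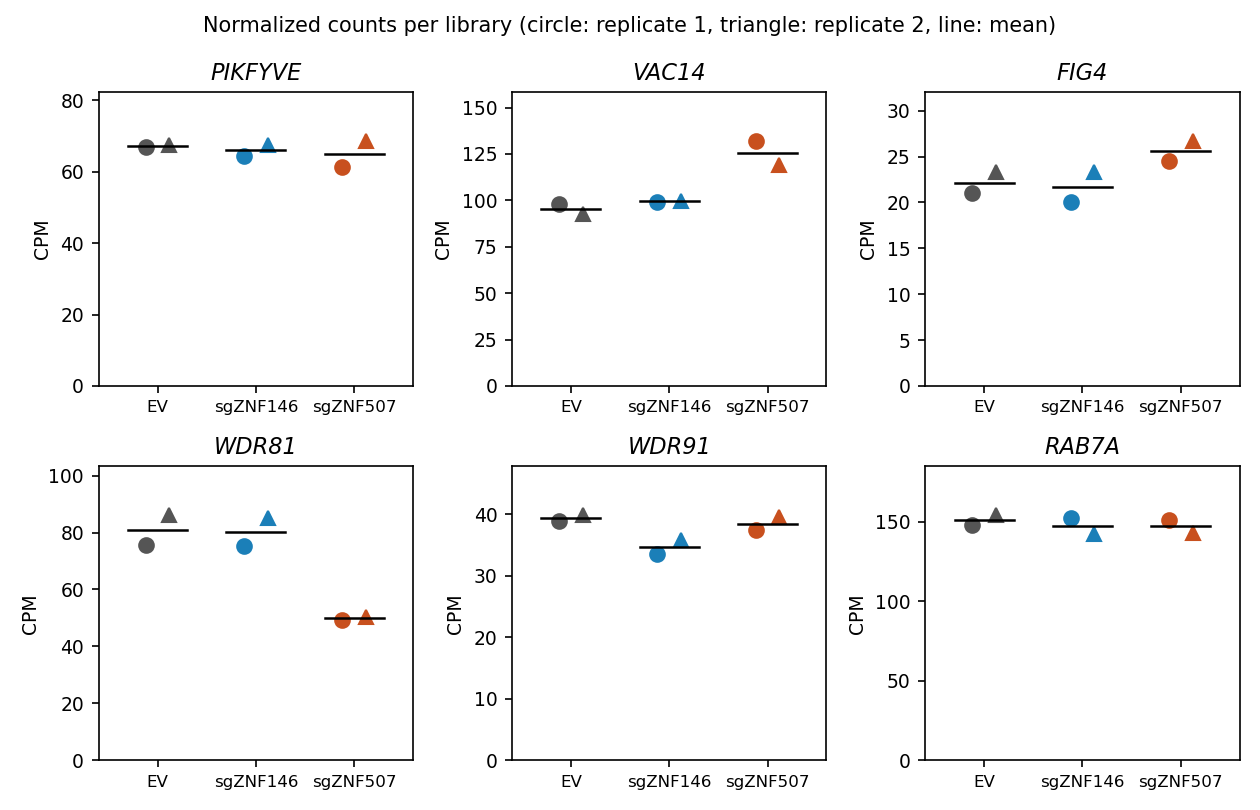
Normalized counts (CPM, linear axes from 0) of the 6 genes in each of the 6 libraries, with circles for replicate 1, triangles for replicate 2 and a line at the mean of each group. WDR81 lies at 49.3 and 50.5 CPM in sgZNF507 and at 75.3 CPM or more elsewhere, VAC14 at 119 and 132 CPM in sgZNF507 and at 99.6 CPM or less elsewhere.

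As the choice of the set fixed in sgZNF507 against EV, 2 of the 6 genes (WDR81 and VAC14) had an adjusted p under 0.05 in the fit over all genes, where 0.182% of 22010 genes did. In 3 of the 6 (WDR81, VAC14 and FIG4) the groups did not overlap, against 29.3% of all genes tested. Nothing is read from these counts, nor from whether the calls of these members held in other fits. The median absolute log2 fold change over the 6 genes, which the choice of the set also shaped, was 0.13. It was 0.09 over all genes tested and 0.05 over the 10647 genes that, like the members, had a mean of at least 10 CPM. VAC14 was no longer called with upper quartile scaling, by edgeR (but not DESeq2) on the EV and sgZNF507 libraries alone, and without EV replicate 1, EV replicate 2 or sgZNF507 replicate 1, where its log2 fold change lay between 0.32 and 0.44. The comparison of sgZNF507 with sgZNF146 reuses the sgZNF507 libraries that chose the set and is likewise a description. There, WDR81 was the 1 member called, where 0.173% of all genes were, and it lost the call without sgZNF146 replicate 2, at a log2 fold change of -0.59. VAC14 was called there as well without a filter, by DESeq2 on 6 libraries and in a fit blocked by replicate number.

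The comparison of sgZNF146 with EV played no part in choosing the genes, though it shares the EV libraries, and was tested. None of the 6 passed (adjusted p = 1.00 for each, edgeR, quasi-likelihood), and 0 of the 22010 genes did (0%), with 535 at an unadjusted p under 0.05. DESeq2 also called 0 with 6 libraries and 3 with the 4 libraries compared, none of them a member. The log2 fold change was -0.01 for WDR81 (95% interval -0.19 to 0.17) and 0.06 for VAC14 (95% interval -0.09 to 0.21). For PIKFYVE, FIG4 and RAB7A it was -0.03, -0.04 and -0.04, with SEs from 0.06 to 0.11. In 2 of the 6 genes, VAC14 and WDR91, the sgZNF146 and EV libraries did not overlap, against 28.6% of all genes tested.

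**Figure D2:**
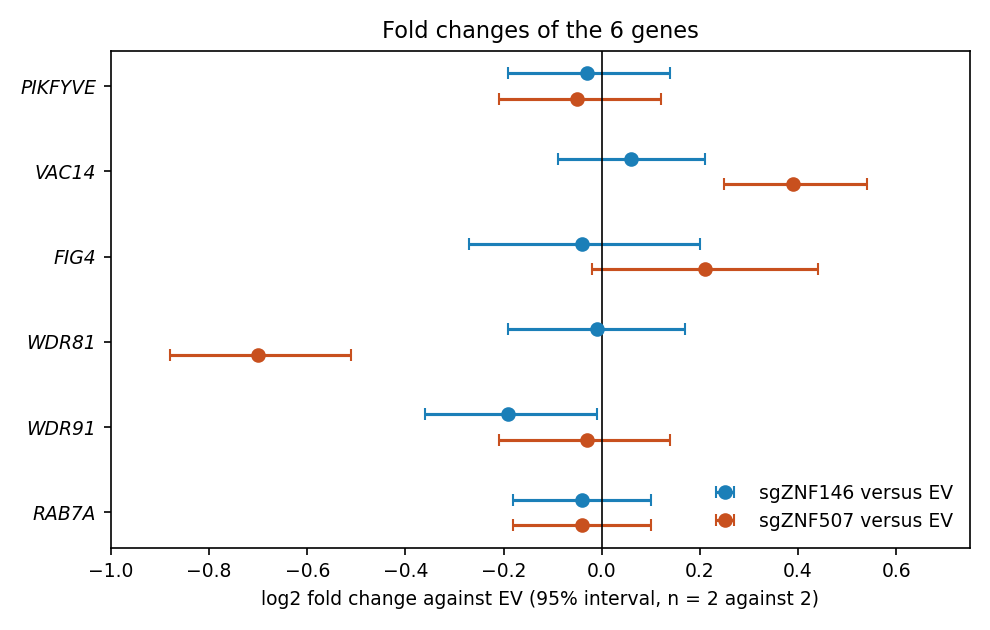
Log2 fold change of each gene against EV, with the 95% interval from the fit over all genes as bars (2 libraries against 2), for sgZNF146 in blue and sgZNF507 in orange. WDR81 at -0.70 and VAC14 at 0.39 in sgZNF507 are values of the comparison that chose the set, and no test is read from them. In sgZNF146 only the interval of WDR91 (-0.36 to -0.01) excludes 0, before adjustment for the number of genes.

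WDR91 was the member with the largest difference in sgZNF146, where it had 33.5 and 35.7 CPM against 38.9 and 39.8 CPM in EV. The log2 fold change was -0.19 (SE 0.08, unadjusted p = 0.0418, adjusted p = 1.00, edgeR), and thus not past the threshold. Genes around it on chromosome 7 showed differences of like size. Of the genes tested within 200 kb, the nearest on either side were CYREN (log2 fold change -0.17, SE 0.07) and CNOT4, a subunit of the CCR4-NOT complex (-0.22, SE 0.08), both with an adjusted p of 1.00. Within 5 Mb, a distance chosen after the values were seen, 23 of the 25 genes with a mean of at least 10 CPM were lower in sgZNF146, with a median log2 fold change of -0.16, while 52.4% of all 10489 such genes were lower, with a median of 0.00. With a division placed where the values changed, and so also chosen from them, the 6 genes more than 1 Mb away on the low-coordinate side lay between -0.07 and 0.02, and the other 19 lay between -0.26 and -0.07. Relative to the EV mean, the median of the 25 genes was -0.19 and -0.14 in the sgZNF146 libraries, and WDR91 was at -0.23 and -0.14. In sgZNF507 the same 25 genes had a median log2 fold change of -0.01 against EV. Its libraries differed, with medians of -0.07 and 0.03 relative to the EV mean. In replicate 1, 12 of the 25 genes lay below both EV libraries, and in replicate 2, 3 did. What lies behind the lower level over this stretch was not tested.

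In sgZNF507, the genes around WDR81 and VAC14 were split between higher and lower. Of the 13 genes tested within 200 kb of WDR81 on chromosome 17, 0 passed the threshold by edgeR and 7 were higher and 6 lower, from -0.13 to 0.52. An unadjusted p under 0.05 was found for SLC43A2 and for RILP. On either side of WDR81, the nearest were TLCD2 (log2 fold change -0.13, SE 0.16) and SERPINF1 (-0.08, SE 0.11). The lncRNA MIR22HG overlaps the start of WDR81 on the opposite strand and had 88 to 142 counts per library, with a log2 fold change of 0.08 (SE 0.21). The gene within 200 kb with the largest difference was RILP, which encodes a RAB7 effector that links late endosomes to dynein. It had 3.82 and 4.12 CPM in EV, 4.89 and 3.70 CPM in sgZNF146 and 6.12 and 5.28 CPM in sgZNF507, a log2 fold change of 0.52 in sgZNF507 (SE 0.18, adjusted p = 1.00, edgeR).

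Around VAC14 on chromosome 16, 0 of 7 genes within 200 kb passed the threshold by edgeR, and none had an unadjusted p under 0.05. Adjacent to VAC14, MTSS2 (1386 bases away) had a log2 fold change of -0.02 (SE 0.06) and HYDIN (924 bases away) of -0.08 (SE 0.20). VAC14-AS1, a lncRNA inside VAC14 on the opposite strand, had 25 to 40 counts per library and a log2 fold change of 0.34 (SE 0.31). Genes with a mean of at least 10 CPM were also taken over 5 Mb on either side. Their median log2 fold change in sgZNF507 was 0.01 around WDR81 (69 genes) and 0.01 around VAC14 (92 genes). Of these, 1 lay as far from 0 as VAC14 itself and was called, ATP6V0D1, a subunit of the proton pump of lysosomes, at 0.39. WWP2, a ubiquitin ligase, was next at 0.33. Of the 69 genes around WDR81, the gene furthest from 0 was the lysosomal cystine transporter CTNS at 0.26. These 3 were chosen after their values were seen. Whether the counting used strand is not given in the sources used here, so reads of VAC14 or WDR81 and of a gene on the opposite strand may not be separated. The overlapping genes of these members hold few counts beside them.

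**Figure D3:**
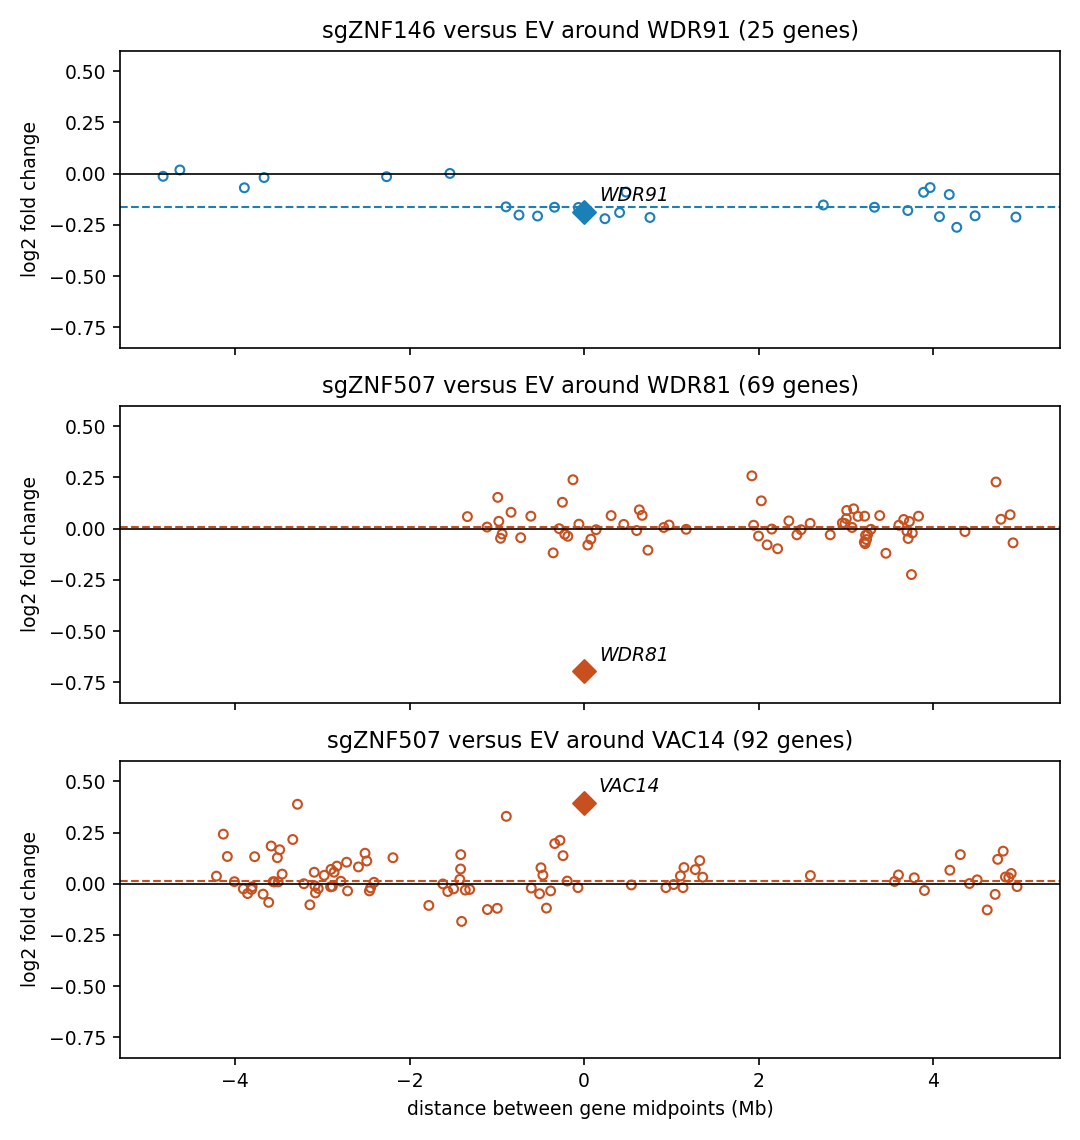
Log2 fold change (vertical axis) of genes with a mean of at least 10 CPM within 5 Mb, by distance between gene midpoints in Mb (horizontal axis), around WDR91 in sgZNF146 and around WDR81 and VAC14 in sgZNF507. Open circles are the surrounding genes, the diamond is the named gene and the dashed line is the median of the circles. WDR91 at -0.19 lies among its neighbors, whose median is -0.16, WDR81 at -0.70 lies below all 69 of its neighbors, and VAC14 at 0.39 lies at the top of its neighbors together with ATP6V0D1.

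Beyond the 6 genes, 71 others of the same pathway were followed, of which 69 were tested. WDFY4 had too few reads and RAB7B was not matched to the table. In sgZNF507 against EV, 1 of the 69 passed the threshold (0.182% of all genes tested did), and in sgZNF146 against EV 0 did (edgeR, with 1 at an unadjusted p under 0.05). The gene that passed was CLCN7, the chloride-proton exchanger of lysosomes, which the PIKfyve lipid is known to inhibit and which the study lists as changed in these samples. The list was drawn up with that known, so nothing is read from this pass. CLCN7 had 115 and 130 CPM in EV, 119 and 122 CPM in sgZNF146 and 174 and 162 CPM in sgZNF507, a log2 fold change of 0.45 (SE 0.07). The call was lost without EV replicate 1, without sgZNF507 replicate 1 and by edgeR, but not DESeq2, on the EV and sgZNF507 libraries alone. The groups did not overlap for 43.5% of the 69 genes in sgZNF507, against 29.3% of all genes tested, and for 27.5% in sgZNF146, against 28.6%. Nothing is read from the sgZNF507 share either, since the lists were drawn up with results of that comparison known. The share over genes of like read level was not taken. The median log2 fold change of the 69 genes was 0.03 and 0.00.

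Among the 10 channels and proteins that bind the product lipid, the largest difference among genes of at least 10 CPM was in MCOLN1 (mucolipin-1), the lysosomal cation channel that this lipid opens. It had 24.2 and 31.2 CPM in EV, 26.0 and 27.2 CPM in sgZNF146 and 18.1 and 21.8 CPM in sgZNF507. The sgZNF507 libraries lay below the other 4, but the log2 fold change of -0.47 (SE 0.13) did not pass (adjusted p = 0.715, edgeR). It passed without a filter and in a fit blocked by replicate number. In sgZNF146 the largest in this list was MCOLN3, at 0.29 (SE 0.14).

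The 7 genes that make PI3P or regulate its making include PIK3C3, the class III kinase, and its partner BECN1, which WDR81 and WDR91 are known to restrain. Log2 fold changes of the 7 ranged from -0.06 to 0.12 in sgZNF507 and from -0.10 to 0.05 in sgZNF146. The genes furthest from 0 were PIK3C2B (0.12, SE 0.09) and UVRAG (-0.10, SE 0.10), respectively. None of the 7 had an unadjusted p under 0.05 in either comparison by edgeR.

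Of the 15 phosphatases of the myotubularin family, which remove the phosphate that PI3P and the PIKfyve lipid share, or assist those that do, 0 passed in either comparison by edgeR, with 1 (MTMR8) at an unadjusted p under 0.05 in sgZNF507. MTMR3 was furthest from 0 among the better read genes in sgZNF507 (0.12, SE 0.07), and MTMR1 in sgZNF146 (0.11, SE 0.09). The 13 genes of early endosomes, with the 3 RAB5 genes and EEA1 among them, had 0 calls and 0 genes at an unadjusted p under 0.05 in both comparisons by edgeR. RAB5A was at -0.11 (SE 0.10) in sgZNF507, and APPL2, a RAB5 effector, at 0.16 (SE 0.10) in sgZNF146.

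The 17 tested genes of the RAB7 cycle had 0 calls by edgeR, with RILP and CCZ1 at an unadjusted p under 0.05 in sgZNF507 and CCZ1 in sgZNF146. CCZ1, a part of the factor that loads RAB7A with GTP, was at -0.31 (SE 0.14) in sgZNF507 and -0.34 (SE 0.14) in sgZNF146. Its near-identical copy, CCZ1B, was at -0.29 (SE 0.17) in sgZNF507 and -0.17 (SE 0.17) in sgZNF146. The counting could split reads between the copies, so the value of either is uncertain. Of the genes with at least 10 CPM, CHM was furthest from 0 in sgZNF507 (0.19, SE 0.12) and CHML in sgZNF146 (-0.17, SE 0.09). Both encode escort proteins for lipid attachment to RAB GTPases. The 7 tested relatives of WDR81 in the BEACH domain family ranged from -0.11 to 0.14 in sgZNF507, and NBEAL1 (0.14, SE 0.09) and, in sgZNF146, NBEA (0.14, SE 0.08) were furthest from 0. All of these list members had an adjusted p of 1.00 in both comparisons.

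**Figure D4:**
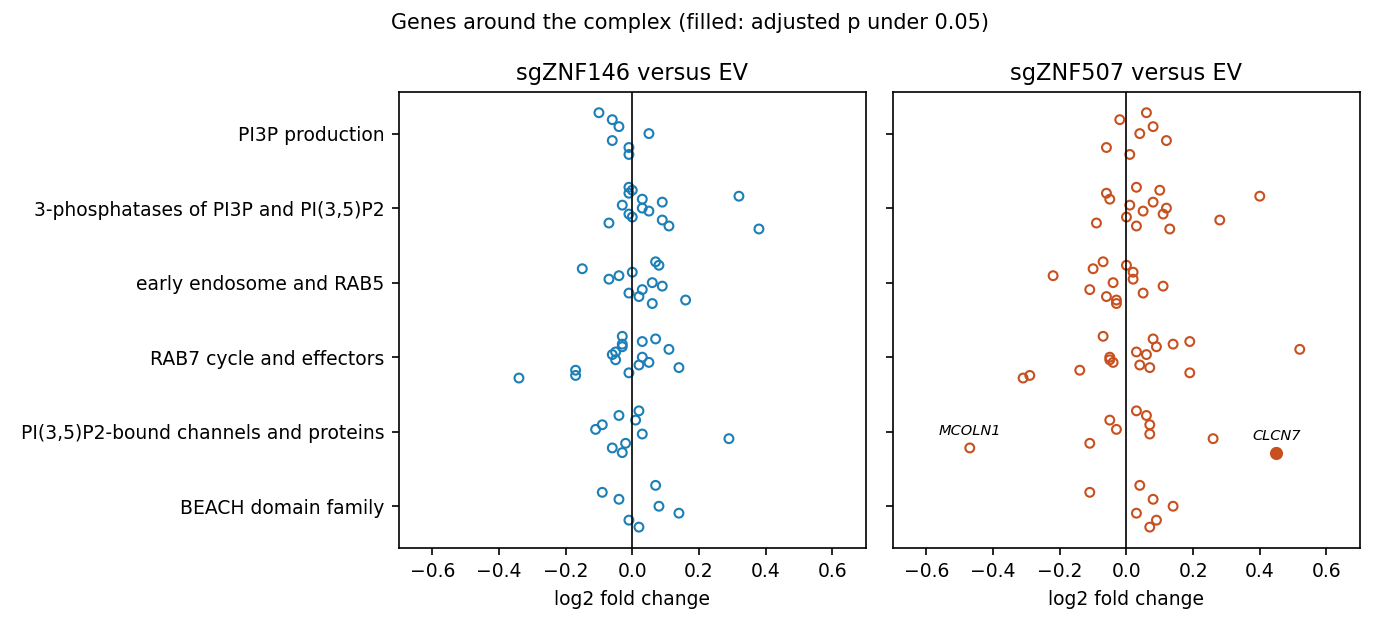
Log2 fold changes of the 69 tested pathway genes (horizontal axis) by list (vertical axis), for sgZNF146 against EV on the left and sgZNF507 against EV on the right, with filled circles for an adjusted p under 0.05. CLCN7 at 0.45 is the filled circle, and MCOLN1 at -0.47 lies furthest to the other side without passing.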

How the data were processed

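HEK293 RNA was measured by paired-end RNA-seq in 6 libraries, grouped by the treatment and replicate number in their labels. The authors clipped the reads, removed ribosomal RNA reads, mapped the rest to hg19 (GRCh37) with TopHat2 and counted them per Ensembl gene by featureCounts. Counts were deposited as whole numbers, not normalized. PCR copies count as separate reads. Reads on the opposite strand could be counted if the strand option, which is not given in the sources used here, was off.

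Symbols and positions came from the GENCODE annotation of GRCh37, which matched 96.1% of gene IDs. NEFL, LHX1 and PECAM1, fixed as markers, were not matched. Genes were filtered by filterByExpr, which left 22010, scaled by TMM and fitted over all 6 libraries with edgeR 4.0.16 (glmQLFit and glmQLFTest, R 4.3.3). The Benjamini-Hochberg adjustment covered every gene tested, and genes under 0.05 were called. Standard errors were derived from the F statistic. CPM are counts scaled to a common TMM-adjusted library size, and CPM per kb divides them by the length of the canonical transcript. The labels call the libraries biological duplicates. The SEs, intervals and p-values set a difference against the spread between these duplicates, which was estimated partly from other genes (9.51 prior degrees of freedom). Only the fitting steps were tested on simulated data, with replicates drawn independently and with changes larger than those of the members.

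Genes named were the 6 members, ZNF507 and ZNF146, list genes past the threshold or with the largest absolute fold change at a mean of at least 10 CPM, overlapping genes, the nearest tested genes within 200 kb and the genes most like each member. Members and lists were chosen with earlier results of these data known. RILP, SLC43A2, CCZ1, CCZ1B, MTMR8, ATP6V0D1, WWP2 and CTNS were named after their values were seen. Alternatives were DESeq2 1.42.0 on 6 or 4 libraries, edgeR on 4, scaling by upper quartiles or by the size factors of DESeq2, leaving out the filter, a minimum of 10 counts per library, the replicate number as a block, and leaving out each library. Figures were drawn with matplotlib 3.10.9. LINE-1 expression, indels and protein levels were not analysed here.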

Additional observations from a re-analysis of the deposited data

How the results depend on the processing

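In sgZNF507 against EV, the log2 fold change of WDR81 ranged from -0.78 to -0.60 and that of VAC14 from 0.32 to 0.48 when single libraries were left out, and both moved by at most 0.01 under the other alternatives. RAB7A ranged from -0.09 to 0.01. In sgZNF507 against sgZNF146, WDR81 ranged from -0.77 to -0.59 and VAC14 from 0.26 to 0.42. In sgZNF146 against EV, 4 members changed sign when single libraries were left out, with ranges of -0.06 to 0.01 for PIKFYVE, -0.15 to 0.07 for FIG4, -0.10 to 0.08 for WDR81 and -0.09 to 0.00 for RAB7A. WDR91 stayed between -0.23 and -0.14.

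The number of genes called over the whole table moved more. In sgZNF146 against EV it was 19 without a filter, 33 with the replicate block and 3 with the 4 libraries compared (edgeR and DESeq2 alike), and 0 to 1 with a library left out. In sgZNF507 against EV it was 40, and 101 without a filter, 121 with the replicate block and 12 to 44 with a library left out. In sgZNF507 against sgZNF146 it was 38, and 112, 196 and 13 to 37, respectively. Of the pathway lists, 1 gene passed in sgZNF507 against EV, 2 without a filter or with the replicate block (CLCN7 and MCOLN1), 0 with edgeR on the 4 libraries compared and 0 to 1 with a library left out. The cause was not tested. The replicate numbers are shared by the groups, and the departures of replicate 1 from the mean of each group gave r, across 22010 genes, from 0.138 to 0.176. Nothing in the labels ties the numbers to a shared culture. With the replicate block, no member was called in sgZNF146 against EV.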

Other observations

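Over the 6 libraries, log2 CPM of WDR81 was most like that of DMKN (Pearson r = 0.997), GLMP (0.991) and ZNF507 itself (0.988) among 10083 other protein-coding genes with a mean of at least 10 CPM. GLMP, a lysosomal membrane glycoprotein, had 34.3 and 40.5 CPM in EV, 34.6 and 38.6 CPM in sgZNF146 and 10.7 and 12.2 CPM in sgZNF507. VAC14 was most like IGF2R, the mannose 6-phosphate receptor of the cation-independent kind (r = 0.991), with 313 and 291 CPM in EV, 305 and 312 CPM in sgZNF146 and 413 and 389 CPM in sgZNF507, followed by NDRG4 (0.986) and KIF2C (0.984). These r describe 6 points that share their libraries and fall into groups, and the genes were ranked by r, so that high values had to appear at the top. The other members varied little over the libraries (SD of log2 CPM from 0.05 to 0.15). The genes most like them were SRSF10, FAM114A2 and ZNF391 for PIKFYVE, SDC3, CHMP6 and ZDHHC1 for FIG4, EZH2, MARS2 and MYCBP2 for WDR91, and FGFR1, WDR18 and RRP7A for RAB7A.

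Around PIKFYVE on chromosome 2, within the same 5 Mb chosen after the values were seen, 17 of 21 genes with a mean of at least 10 CPM lay below EV in sgZNF507 (median log2 fold change -0.06), as did 51.1% of all 10489 such genes (median 0.00). Around FIG4 in sgZNF146, 28 of 37 lay below EV (median -0.04), against 52.4% of all such genes. The gene nearest to PIKFYVE, IDH1, lies 181 bases from it and had a log2 fold change of 0.05 (SE 0.09). Next to RAB7A, RPN1 had 0.07 (SE 0.06). Both were measured in sgZNF507 against EV and had an adjusted p of 1.00 (edgeR).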
